A study of Mus musculus with 28 samples.

Results

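The livers compared here came from mice with diet-induced fatty liver disease that were treated with the lowest of 3 doses of tropifexor (LJN452) and from lean mice. The members are the 4 animals of the low-dose group and the 4 lean controls, 8 of the 28 animals of the series, chosen by the group labels alone, and all genes of the table that sets these groups against each other. Lean controls were male C57BL/6 mice of about 6 weeks, fed for 26 weeks on a low-fat diet. It held 10% of calories from fat and no fructose or cholesterol. The labelled age is shorter than the 26 weeks of diet, so it is not the age at collection. Low-dose animals, of the same strain, sex and age, were fed for 26 weeks on 40% of calories from fat with 22% fructose and 2% cholesterol by weight, a diet that induces nonalcoholic steatohepatitis (NASH), and then received tropifexor by mouth once a day for 4 weeks. The doses were 0.1, 0.3 and 0.9 mg/kg. Which group received which is not in the labels, and the names low, mid and high were read in rising order of dose. A vehicle group of 4 animals on the NASH diet is used beside them; its treatment field lists the drug, while its titles name vehicle, and the titles were followed. A difference between low-dose and lean liver therefore holds the effects of both the diet and the drug. The vehicle group shows the diet together with 4 weeks of vehicle dosing, as the labels give no dosing for the lean controls.

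Tropifexor is an agonist of FXR, the nuclear receptor through which liver and gut sense bile acids. When bile acids activate FXR in hepatocytes, the receptor and its partner RXR raise genes that export bile acids and the repressor SHP, and the genes that make bile acids from cholesterol are shut down. Steatohepatitis adds fat droplets, inflammatory cells and collagen scar to the liver. A cholesterol-rich diet lowers the genes of cholesterol synthesis in the liver through the SREBP2 pathway.

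Gene levels are FPKM, the fragments counted on a gene scaled to its transcript length and to the library size, with 1 authors' value per group of 4 animals, so single animals cannot be seen and whether 1 animal carries a value could not be examined. Fold changes are log2 ratios of these values, and the standard error (SE) given with them is the one implied by the authors' test statistic, rescaled to the deposited p. A gene is called when the authors' deposited table tested it and gives a q under 0.05. Of 47719 genes listed in the table of low dose against lean, 15937 were tested and 3796 were called (23.8%). Called higher in low-dose liver were 2193 genes (13.8%), and called lower were 1603 (10.1%). The median tested gene stood at 0.02 (log2). FPKM summed to 706031 over all genes in low-dose liver and to 903297 in lean liver. In the same lean controls against vehicle, 1869 of 15484 tested genes were called higher in vehicle (12.1%) and 1321 lower (8.53%). Of 16144 genes tested between low dose and vehicle, 973 were higher in low dose (6.03%) and 840 lower (5.20%). These 3 comparisons share animals, so their values are set side by side and no overlap is drawn from them.

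**Figure D1:**
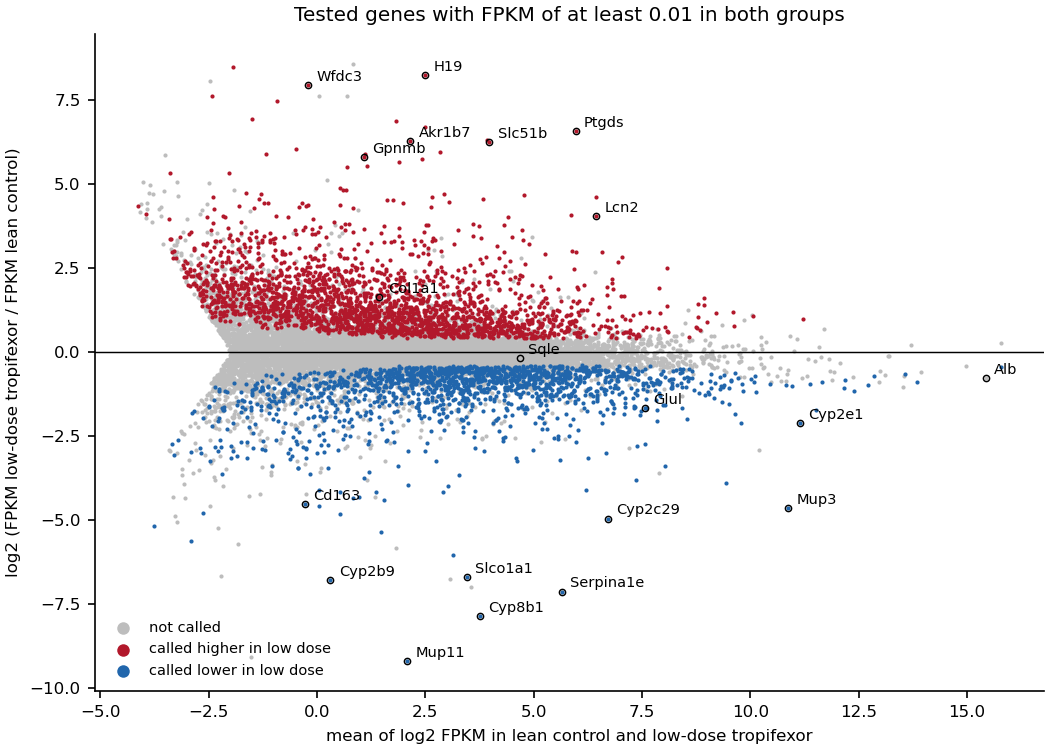
Each point is 1 of 15788 tested genes with an FPKM of at least 0.01 in both groups; the x axis is the mean of the 2 log2 FPKM values and the y axis the log2 ratio of low-dose tropifexor to lean control. Red and blue points are genes called higher and lower in low-dose liver, grey points are not called, and circled genes are named; Cyp8b1 lies at -7.85 and Slc51b at 6.25.

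The genes with the largest rises over lean liver had low levels there. H19, an imprinted noncoding RNA of fetal liver, went from 0.326 FPKM in lean to 98.6 in low-dose liver, 8.24 on the log2 scale (SE 0.531, with q = 0.000426 by the authors' deposited table). It was also higher in vehicle, by 2.32, and low dose exceeded vehicle by 5.91. Ptgds, a prostaglandin D synthase, stood at 6.45 FPKM in lean and 613 in low-dose liver, a difference of 6.57 (SE 0.284). Vehicle was lower than lean for this gene, by -0.86, and low dose exceeded vehicle by 7.43. Ubd, the ubiquitin-like modifier FAT10 induced by inflammatory cytokines, went from 1.71 to 134 FPKM (6.30, SE 0.275). Others among the 12 highest were Gsta1 (6.86, from 0.327 FPKM in lean), Akr1b7 (6.27) and Slc51b (6.25). A further 5 started from 0.0138 to 0.0884 FPKM in lean liver: Rbm24 (8.47, SE 0.716), Wfdc3 (7.94, SE 0.913), Lrtm2 (7.48, SE 1.26), 6030419C18Rik (6.93, SE 0.503) and Elovl7 (6.04, SE 0.294). With 1 FPKM added to both groups these 5 stood at 2.54, 3.79, 2.95, 2.25 and 2.65, and H19 and Ptgds at 6.23 and 6.37, so the order among the highest depends on that choice. H19 and Lrtm2 overlap other expressed genes on the opposite strand. The sources used here do not state if reads were assigned by strand, so both values are uncertain. The same limit, from a gene on either strand, holds below for Abcb11, Abcb4, Abcg5, Acaca, Acly, Ccnd1, Cd74, Clic3, Col3a1, Cyp51, Ddit3, Ephx1, Fcnaos, Fdps, Glul, Gm11832, Gsta3, Hsd3b7, Igf1, Npc1, Nr1i3, Oat, Pdia4, Pklr, Rian, Srebf1, Tbx3, Tmie and Tmprss4.

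Among the 12 largest falls, the major urinary proteins, pheromone carriers that male liver secretes, took 3 places. Not every member fell, as Mup20 had no call, at 1202 FPKM in lean and 1283 in low-dose liver. Mup3 went from 9430 FPKM in lean to 377 in low-dose liver (-4.65, SE 0.362). Mup11 went from 102 to 0.175 (-9.19) and Mup17 from 71.7 to 1.09 (-6.05). Many genes of this family are near-identical copies whose reads the counting may have split among them, so single members are uncertain. Serpina1e, an antitrypsin copy with the same limit, went from 593 to 4.23 FPKM (-7.13, SE 0.229). A pair of bile acid genes also stands in this group, Cyp8b1 (-7.85) and Slco1a1 (-6.70), and 3 further cytochromes P450, Cyp2b9 (-6.79), Cyp46a1 (-5.35) and Cyp2c29 (-4.96). Slc17a8 (-4.83), Serpina4-ps1 (-4.59) and the macrophage scavenger receptor Cd163 (-4.52) complete it. For all 12, the authors' deposited table gives q = 0.000426, the smallest q in that comparison.

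Genes of the FXR pathway differed from lean liver in both directions. In a list of FXR, its partners and the genes it induces, 8 of 18 tested members were higher and 4 lower in low-dose liver; in vehicle the counts were 4 and 5. The median member stood at 0.31 in low-dose and at -0.17 in vehicle liver, against 0.02 and 0.01 over all tested genes. Slc51b, the beta subunit of the transporter that moves bile acids out of the hepatocyte into blood, rose from 1.81 FPKM in lean to 138 in low-dose liver, 76.3-fold (6.25, SE 0.333). Vehicle did not pass the test against lean (0.87, q = 0.0535 in the authors' deposited table), and low dose exceeded vehicle by 5.38 (SE 0.318). Slc51a, the alpha subunit of the same transporter, was at 0.00658 FPKM in lean and 0.0104 in low-dose liver and was not tested. The rise of Slc51b is therefore that of 1 subunit and does not show a rise of the whole transporter. Akr1b7, an aldo-keto reductase, went from 0.508 to 39.1 FPKM (6.27, SE 0.305), with vehicle at 0.72 (q = 0.0753 in the authors' deposited table). Slc51b and Akr1b7 stood at 6.88 and 6.50 at the mid dose and at 6.94 and 8.24 at the high dose, measured against the same lean controls. Differences between doses were not tested here.

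Nr0b2, which encodes SHP, was at 45.3 FPKM in lean and 108 in low-dose liver (1.26, SE 0.163), while vehicle was lower than lean by -0.61. Low dose exceeded vehicle by 1.87. Abcb4, which exports phospholipid into bile, rose by 1.34, and Atp8b1, a phospholipid flippase of the bile canaliculus, by 0.44. Abcc4, a bile acid efflux pump of the blood side, rose by 2.26 from 0.600 to 2.87 FPKM; it stood at -0.76 and -0.10 in mid- and high-dose liver. Abcb11, the bile salt export pump, was at 210 and 283 FPKM and did not pass the test (0.43, SE 0.342, q = 0.308 in the authors' deposited table). In mid- and high-dose liver it stood at 1.70 and 1.65. The receptors of the pathway were lower: Nr1h4, which encodes FXR itself, went from 72.6 to 21.8 FPKM (-1.73, SE 0.161) without a call in vehicle (-0.24). Its partner Rxra fell by 0.86, the FGF receptor Fgfr4 by 1.17 and its co-receptor Klb by 1.52. In vehicle, Rxra and Fgfr4 had no call against lean (q = 0.744 and 0.143 in the authors' deposited table). Klb was called there, and did not pass the test between low dose and vehicle (q = 0.790 in the authors' deposited table).

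FXR binds inverted repeats of the letters AGGTCA with 1 base between them. The promoters of the export genes Slc51b and Abcb11 are shown because Slc51b was called and Abcb11 was not. The 250 bases before each start site were taken from RefSeq (GRCm38.p6) and read 5' to 3' on the gene's strand. The motif AGGTCANTGACCT was searched on both strands, and capitals mark the best match. The Slc51b window is chr9:65422774-65423023 on the minus strand, and the Abcb11 window is chr2:69342617-69342866 on the minus strand.
Slc51b: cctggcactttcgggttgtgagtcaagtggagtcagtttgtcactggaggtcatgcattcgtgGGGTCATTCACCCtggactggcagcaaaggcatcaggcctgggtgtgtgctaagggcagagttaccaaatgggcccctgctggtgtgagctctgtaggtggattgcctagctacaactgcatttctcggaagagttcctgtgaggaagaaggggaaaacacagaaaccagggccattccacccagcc
Abcb11: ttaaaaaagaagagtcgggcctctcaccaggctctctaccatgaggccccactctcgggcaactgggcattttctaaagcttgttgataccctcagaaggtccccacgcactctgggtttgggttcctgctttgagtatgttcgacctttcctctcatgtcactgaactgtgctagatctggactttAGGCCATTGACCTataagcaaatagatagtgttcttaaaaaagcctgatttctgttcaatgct
The Abcb11 match lies 63 to 51 bases before the start and differs from the motif at 1 of 12 fixed positions, which 0.0791% of 32851 promoter windows of this length match as well or better. In Slc51b the match lies 187 to 175 bases before the start and differs at 3 positions, a likeness found in 9.63% of windows. Of the 20 genes of the list, 17 have a promoter in the table, and 5 of these match with 3 differences or fewer. A match describes letters only and shows no binding.

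Bile acid synthesis was lower than in lean liver. Of 14 genes for synthesis and conjugation, 8 were lower and 1 was higher in low-dose liver, with a median of -0.64; in vehicle 4 were lower and 3 higher. Cyp8b1, the sterol 12-hydroxylase that makes cholic acid, went from 205 to 0.889 FPKM, 231-fold lower (-7.85, SE 0.288). Vehicle was lower by -1.17, so most of the distance lay between vehicle and low dose (-6.68, SE 0.292). Cyp7a1, the rate-limiting enzyme of the classical pathway, was at 9.35 FPKM in lean and 2.77 in low-dose liver (-1.76, SE 0.520, q = 0.00115 in the authors' deposited table). Its value in vehicle was on the other side of lean, at 2.42 (SE 0.424), and low dose was lower than vehicle by -4.17. Cyp7b1 of the alternative pathway fell by 2.10 and Hsd3b7 by 1.73. Ch25h, a cholesterol 25-hydroxylase of immune cells, was the member called higher (2.66), with 2.75 in vehicle. Among 5 genes of bile acid uptake from blood, 3 were lower and 1 higher, the same counts as in vehicle. Slc10a1, the sodium-dependent bile acid importer NTCP, went from 856 to 81.2 FPKM, 10.5-fold lower (-3.40, SE 0.217). Slco1a1, an organic anion importer, went from 113 to 1.09 (-6.70, SE 0.231). Ephx1, an epoxide hydrolase, was the member called higher (0.76).

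Cholesterol synthesis stood nearer to lean liver in the low-dose group than in vehicle. Of 20 genes of the pathway, 6 were lower and 1 was higher in low-dose liver, and 13 did not pass the test. In vehicle 17 of the 20 were lower and none was higher. Between low dose and vehicle, 12 were higher in low dose and none was lower. The median member was at -0.32 in low-dose, -1.53 in vehicle, 0.56 in mid-dose and 0.02 in high-dose liver, all against lean. Sqle, the squalene epoxidase, stood at 27.3 FPKM in lean and 24.2 in low-dose liver (-0.17, SE 0.161, q = 0.550 in the authors' deposited table). Vehicle was lower than lean by -3.95 (SE 0.148), and low dose exceeded vehicle by 3.77 (SE 0.209). Cyp51 (0.07), Msmo1 (0.23) and Nsdhl (-0.40), which act further along the pathway, had no call against lean and had fallen by 2.22, 2.15 and 2.07 in vehicle. Sc5d, the sterol desaturase, was at 362 FPKM in lean and 156 in low-dose liver (-1.21, with -1.23 in vehicle and 0.02 between low dose and vehicle). Fdps (-1.17) and Ebp (-0.98) were also called lower.

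Hmgcs1, an early enzyme of the pathway, was at 75.4 and 101 FPKM (0.42 in low-dose liver, not called; -1.32 in vehicle), and its promoter is shown because it alone among the 15 list members in the promoter table holds an exact match to TCACNCCAC, a sterol regulatory element. The window is chr13:119690101-119690350 on the plus strand, from RefSeq (GRCm38.p6), with the match in capitals.
Hmgcs1: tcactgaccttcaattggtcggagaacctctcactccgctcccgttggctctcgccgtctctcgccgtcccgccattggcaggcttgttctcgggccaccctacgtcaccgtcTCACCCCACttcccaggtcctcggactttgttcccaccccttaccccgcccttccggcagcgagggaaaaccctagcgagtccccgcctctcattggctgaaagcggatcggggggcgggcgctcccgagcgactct
The match lies 137 to 129 bases before the start, and 1.05% of promoter windows hold an exact match on either strand. With 1 difference allowed, 7 of the 15 members and 20.7% of all windows match.

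Around this pathway, 10 genes of sterol-regulated uptake and feedback gave 2 higher and 4 lower calls, against 0 and 6 of 9 in vehicle. Scap, which escorts SREBP to its activation, was lower by -1.44, and Insig1, which holds it back, by -1.27. Scarb1, the HDL receptor, was higher by 0.94, with vehicle at 0.06. Of 11 genes of the oxysterol receptor LXR and cholesterol efflux, 3 were higher and 1 was lower, the same counts as in vehicle. Abcg1, a cholesterol exporter of macrophages, rose by 1.60, and Soat1, which esterifies cholesterol, by 1.32. A normal test on the rescaled SE does not call Soat1, and with fold changes centred on the median gene as well the 3 higher genes become 1. Abca1 was lower (-0.61). Abcg5, which sends sterols into bile, did not pass the test against lean (0.15, SE 0.268), with vehicle higher by 0.85.

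**Figure D2:**
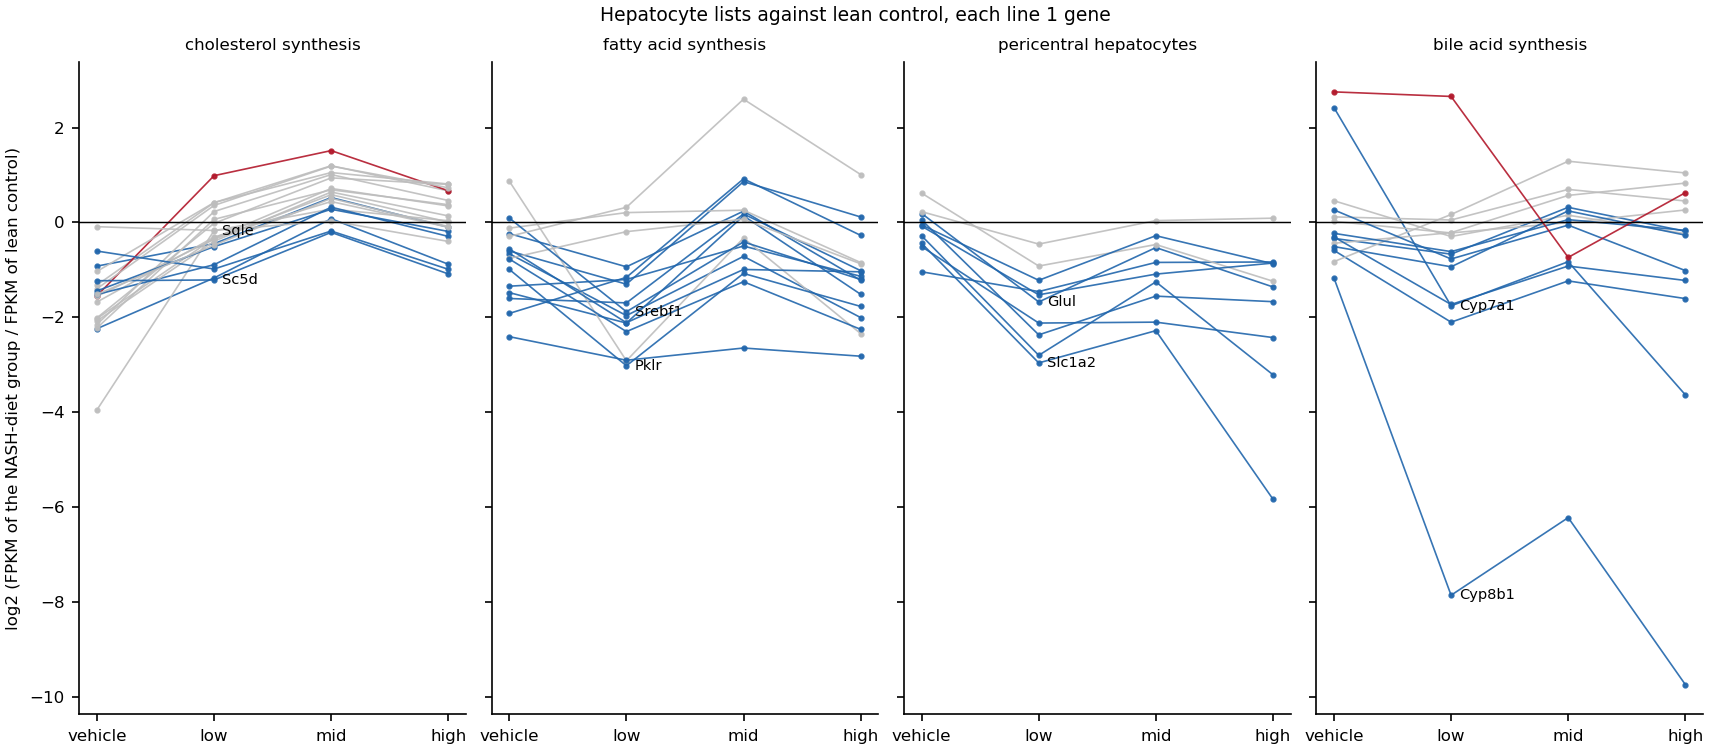
Each line is 1 tested gene of a list, with the log2 ratio to lean control on the y axis and the NASH-diet groups (vehicle, then low, mid and high dose) on the x axis; red and blue lines are genes called higher and lower in low-dose liver, grey lines are not called. Lines of cholesterol synthesis climb from vehicle to low dose (medians -1.53 and -0.32), and those of pericentral hepatocytes fall (medians -0.06 and -1.60).

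Fatty acid synthesis was further from lean liver in the low-dose group than in vehicle. Of 16 genes, 12 were lower and none was higher in low-dose liver, with a median of -1.79; in vehicle 8 were lower and 1 was higher, with a median of -0.71. Between low dose and vehicle, 7 were lower in low dose and 1 was higher. Srebf1, the transcription factor that drives the pathway, went from 336 to 91.3 FPKM (-1.88, SE 0.395), with vehicle at 0.09. Mlxipl, the carbohydrate-sensing factor ChREBP, fell by 2.11, and its target Pklr, liver pyruvate kinase, went from 288 to 35.6 FPKM (-3.02, SE 0.401). Among the enzymes, Me1 fell by 2.30, Acly by 1.69, Acaca by 1.20 and Fasn by 1.30, the last not called under the normal test. Of these, Me1 was called against vehicle (q = 0.00180 in the authors' deposited table). Acly, Acaca and Fasn were not (q = 0.904, 0.928 and 0.476 in the authors' deposited table), and Acly and Acaca were called against lean in vehicle too. Scd1, the stearoyl-CoA desaturase, had one of the widest distances of the list, 3225 FPKM in lean and 428 in low-dose liver, yet did not pass the test (-2.91, SE 0.933, q = 0.400 in the authors' deposited table), although a normal test on the rescaled SE called it. Medians at the mid and high dose were -0.13 and -1.17.

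Fat storage and use differed by gene. Of 14 genes of lipid droplets, 5 were higher and 1 was lower. Cidec, a droplet fusion protein that marks steatosis, went from 3.64 to 48.7 FPKM (3.74, SE 0.286), below vehicle (4.46) by -0.72. The droplet coat proteins Plin2 (0.75) and Plin5 (1.06) and the lipase Pnpla2 (0.70) rose as well, while Dgat2, which makes triglyceride, fell by 1.60. Cidea, another fusion protein, was at 0.956 and 0.411 FPKM (-1.22, SE 0.719, not called), although vehicle exceeded lean by 4.50 and low dose fell short of vehicle by -5.72. Of 20 genes of fatty acid oxidation and its regulator PPAR alpha, 8 were lower and 4 higher; in vehicle 3 were lower and 3 higher. Ppara itself went from 77.5 to 29.6 FPKM (-1.39), and its targets Cyp4a14 (-1.84) and Cyp4a10 (-1.68) were lower. Called higher in the same list were Ehhadh (85.1 to 139 FPKM), Acot2 (1.77 to 7.07), Pdk4 (2.67 to 4.97) and Fgf21. Fgf21, a hormone that the stressed or fasting liver secretes, rose from 7.03 to 48.9 FPKM (2.80, SE 0.200), with vehicle at -0.44 and not called. Of 10 genes of glucose handling, 4 were lower and none higher, in vehicle as well. G6pc, the last enzyme of glucose production, went from 86.9 to 11.4 FPKM (-2.93, SE 0.188), and was not called in vehicle (-0.28). Pck1, the entry enzyme of glucose production, had no call (0.47).

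Genes of the hepatocytes around the central vein were lower in low-dose liver and near lean in vehicle. Of 10 pericentral genes, 8 were lower and none was higher (median -1.60); in vehicle 2 were lower and 1 was higher (median -0.06), and between low dose and vehicle 8 were lower. Glul, glutamine synthetase, which pericentral cells use to trap ammonia, went from 339 to 106 FPKM (-1.67, SE 0.407), with vehicle at 0.19. Oat, which feeds the same route, went from 445 to 63.9 (-2.80, SE 0.441) and Slc1a2, a glutamate importer, from 40.3 to 5.18 (-2.96, SE 0.405). Lgr5, a receptor that amplifies Wnt signals, fell by 2.37, and Tbx3, a Wnt-responsive factor, by 1.52. Axin2, a feedback target of Wnt, did not pass the test (-0.45). Medians at the mid and high dose were -0.96 and -1.30. Periportal and urea cycle genes gave fewer calls: 2 of 11 were lower and none higher in low-dose liver, and 7 were lower in vehicle. Arg1, arginase, was lower by -0.75 and Asl, argininosuccinate lyase, by -0.52. Ass1, which acts before Asl, stood at -0.18 (SE 0.218, not called), with vehicle at -0.79.

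**Figure D3:**
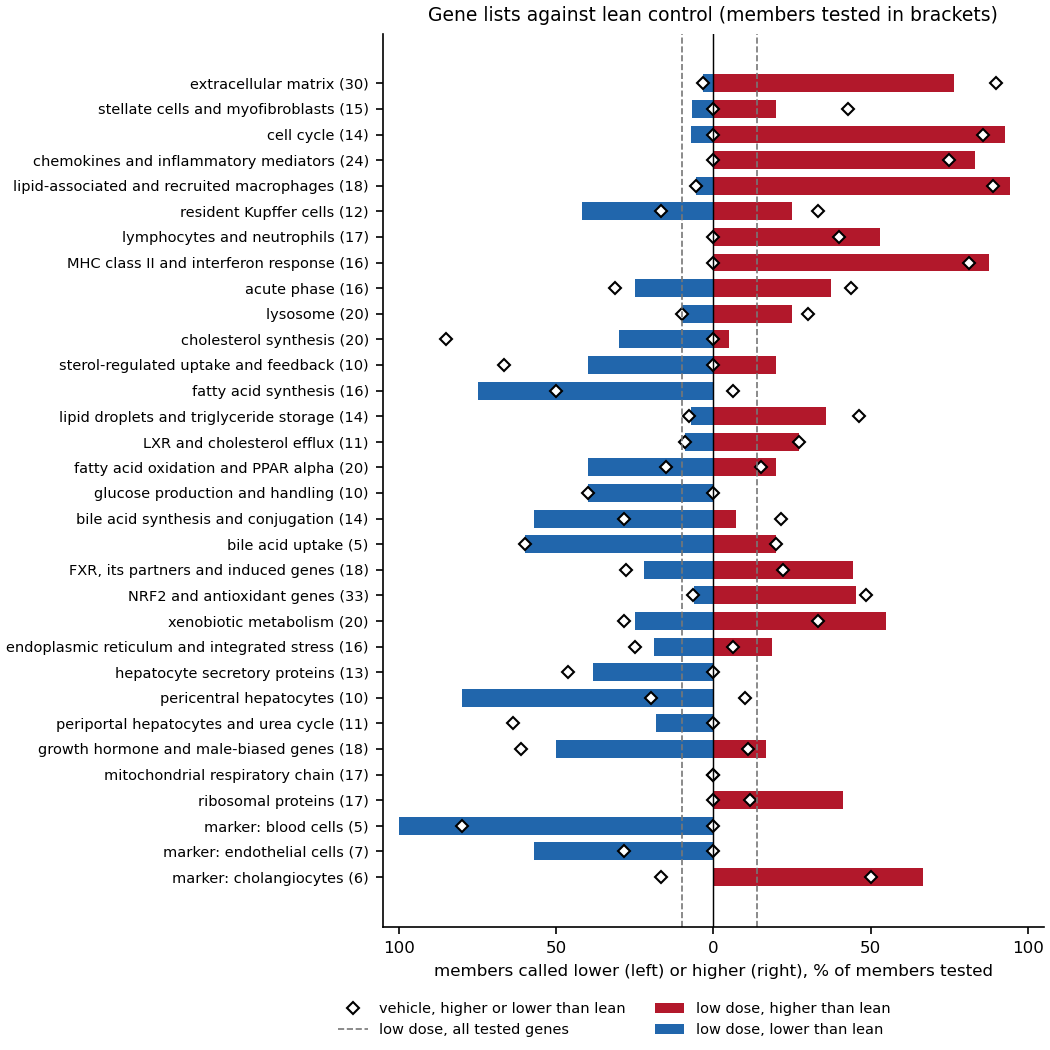
Bars show the share of tested members of each list called higher (red, to the right) or lower (blue, to the left) in low-dose liver than in lean liver, diamonds the same shares for vehicle, and dashed lines the shares over all tested genes in low dose (13.8% and 10.1%). Bars of the cell cycle, inflammatory, macrophage and MHC lists reach far to the right in both groups; the cholesterol synthesis diamond lies far left of its bar.

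Scar matrix genes were above lean, and those of type I collagen were below vehicle. Of 30 extracellular matrix genes, 23 were higher and 1 was lower in low-dose liver (median 1.16), and 27 and 1 in vehicle (median 1.82). Between low dose and vehicle, 11 were lower in low dose and 3 higher. Col1a1, which encodes the alpha 1 chain of type I collagen, was at 1.54 FPKM in lean and 4.80 in low-dose liver (1.64, SE 0.331). Vehicle was at 3.16 and low dose below vehicle by -1.52 (SE 0.305). Its partner chain Col1a2 stood at 1.21, with 2.52 in vehicle. Col3a1, of type III collagen, was at 15.8 and 26.7 FPKM, which did not pass the test (0.76, SE 0.329, q = 0.0616 in the authors' deposited table), with vehicle at 2.45. The matrix proteases of macrophages did not follow these values: Mmp12 went from 1.77 to 38.8 FPKM (4.46, SE 0.271), above vehicle by 0.58, and Mmp13 from 0.168 to 3.33 (4.31), above vehicle by 0.77. Spp1, osteopontin, a matrix protein that macrophages and bile duct cells make, was the third member above vehicle, with 33.9 FPKM in lean and 268 in low-dose liver (2.98). Lum, a collagen-binding proteoglycan, rose from 4.40 to 24.9 FPKM. Fn1, fibronectin, which hepatocytes secrete into plasma, was the member called lower (-0.79, SE 0.472), a call that a normal test on the rescaled SE did not keep. Timp1, a protease inhibitor, had a call with a wide error (3.80, SE 1.89, q = 0.0400 in the authors' deposited table), lost under the same normal test.

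Stellate cells and the myofibroblasts they become lay down scar; of 15 of their genes, 3 were higher and 1 was lower, and 6 were higher in vehicle. Pdgfra, a growth factor receptor, rose by 1.13, Vim, an intermediate filament, by 1.08, and Tgfb1, the main fibrogenic cytokine, by 0.67 (SE 0.402, not called under the normal test). Acta2, smooth muscle actin, went from 4.75 to 2.53 FPKM (-0.91, SE 0.227), with vehicle at -0.05. In RNA of whole liver, fewer cells of a type and less RNA per cell cannot be told apart.

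Inflammatory genes were higher than in lean liver. Of 24 chemokines and inflammatory mediators, 20 were higher and none was lower in low-dose liver (median 1.68), against 18 and none in vehicle (median 1.37). Between low dose and vehicle, 3 were higher and none was lower. Ccl2, which draws monocytes, went from 2.13 FPKM in lean to 16.2 in low-dose liver (2.92, SE 0.280), above vehicle by 0.88 (SE 0.233). Ccl9 went from 35.9 to 143 (1.99), with vehicle at 0.14, and Icam1, an adhesion molecule, rose by 1.72. Tnf rose by 1.96, while Il1b had no call (0.82). At the mid and high dose the list's medians were 0.03 and 0.24.

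Macrophages that enter the fatty liver, called lipid-associated, gave 17 higher and 1 lower call among 18 genes (median 2.28); vehicle gave 16 and 1 (median 1.91). Gpnmb, a glycoprotein of lipid-laden macrophages, was at 0.285 FPKM in lean and 15.9 in low-dose liver (5.80, SE 0.586) and did not differ from vehicle beyond the test (-0.30, SE 0.227, q = 0.427 in the authors' deposited table). Trem2, a lipid receptor of the same cells, rose by 3.26 (SE 0.349). Cd14, the endotoxin co-receptor, rose by 3.32 from 2.10 to 20.9 FPKM and exceeded vehicle by 1.49. Fabp5, a fatty acid carrier that other liver cells also express, was the member called lower (-1.98), with -2.01 in vehicle. Resident Kupffer cell genes moved both ways, 3 of 12 higher and 5 lower. Timd4, which marks long-lived Kupffer cells, went from 3.08 to 1.43 FPKM (-1.11, SE 0.245) and Clec4f, their lectin, from 52.0 to 31.5 (-0.72). Cd163 went from 3.96 to 0.173 (-4.52, SE 0.335). Also called lower were C6 (66.6 to 43.5 FPKM), a complement gene that other liver cells express too, and Cdh5 (10.2 to 7.03 FPKM). Cdh5 is counted among the endothelial markers as well, so these calls are not specific to Kupffer cells. Called higher were Cd5l (43.4 to 65.3 FPKM), Marco (4.75 to 7.35 FPKM, not called after centring on the median gene) and Adgre1. Adgre1, which encodes F4/80 and is shared with recruited macrophages, rose by 0.90. Vsig4 had no call (-0.09).

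**Figure D4:**
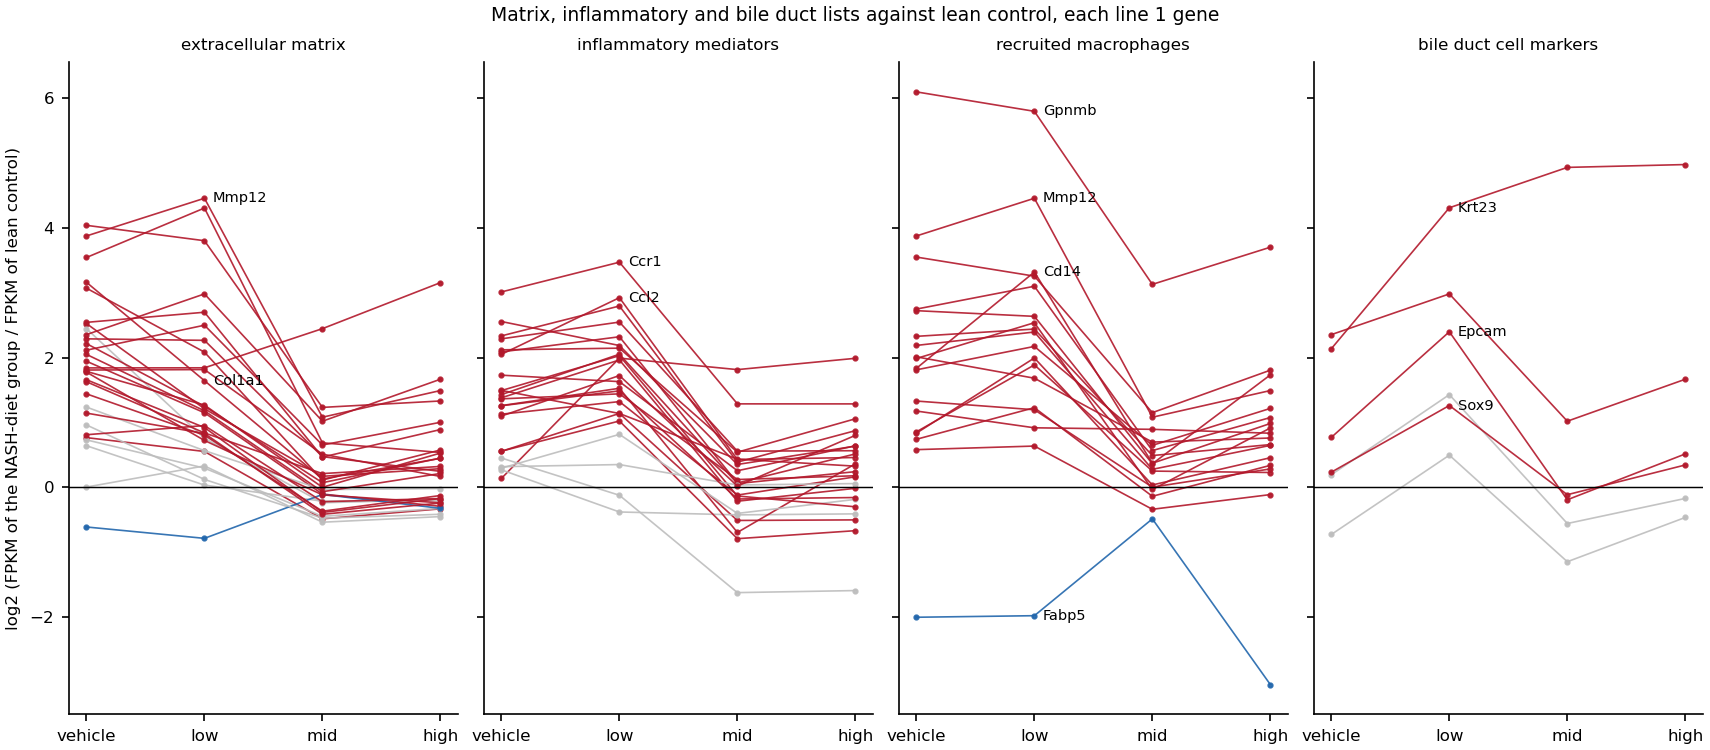
Each line is 1 tested gene, with the log2 ratio to lean control on the y axis and vehicle, low, mid and high dose on the x axis; red and blue lines are called higher and lower in low-dose liver, grey lines are not called. The matrix, inflammatory and macrophage lists have medians of 1.16, 1.68 and 2.28 in low dose, of -0.05, 0.03 and 0.37 at the mid dose and of 0.07, 0.24 and 0.80 at the high dose.

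Antigen presentation and interferon genes gave 14 higher and no lower calls among 16 (median 1.55), and 13 in vehicle (median 0.92). Between low dose and vehicle 7 were higher in low dose and none was lower. Those 7 were interferon-responsive: Ifit2 went from 1.78 to 7.99 FPKM (2.17, SE 0.194; 1.18 in vehicle), and Rsad2 from 4.21 to 14.0 (1.74), with vehicle at 0.03. The class II genes H2-Aa, H2-Ab1 and H2-Eb1 and their chaperone Cd74 rose by 1.69, 1.26, 1.52 and 1.20, and differed from vehicle by 0.11, -0.01, 0.01 and -0.02. Among 17 lymphocyte and neutrophil genes, 9 were higher and none was lower, at low levels: the T cell genes Cd8a (0.154 to 0.574 FPKM, 1.90) and Cd3e (1.15), and the neutrophil calprotectin subunit S100a9 (3.23 to 9.24 FPKM, 1.52). The B cell gene Cd79a (-0.56) did not pass the test. None of the 17 was called against vehicle (2 at an unadjusted p under 0.05 in the authors' deposited table).

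Cell division genes were higher than in lean liver. Of 14, 13 were higher and 1 was lower (median 2.04), against 12 and none in vehicle (median 1.97). Top2a, a topoisomerase of dividing cells, went from 0.364 FPKM in lean to 6.87-fold that level (2.78, SE 0.478), with 2.78 in vehicle as well. Ccnd1, the G1 cyclin, went from 5.38 to 73.5 (3.77, SE 0.270) and exceeded vehicle by 1.90. Rrm2, a ribonucleotide reductase subunit, was lower (-1.18), with vehicle at 0.03. Medians at the mid and high dose were 1.08 and 1.03.

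Some markers of bile duct cells were higher too. Of 6 tested, 4 were higher than in lean liver (Epcam, Sox9, Krt23 and Spp1) and none was lower. Of 7 tested against vehicle 5 were higher. Epcam, an adhesion protein of duct and progenitor cells, went from 1.33 to 6.99 FPKM (2.40, SE 0.244), and Sox9, a duct transcription factor, from 1.23 to 2.95 (1.26, SE 0.205). Krt23 (1.40 to 27.8 FPKM, 4.31) and Spp1 are made by other liver cells as well. Krt19, a duct keratin, did not pass the test against lean (4.19 and 5.90 FPKM, 0.49), where vehicle was lower by -0.73. Low dose exceeded vehicle by 1.22 for this gene. Krt7, another duct keratin, did not pass the test against lean either (0.869 and 2.34 FPKM, q = 0.0640 in the authors' deposited table). Epcam, Sox9 and Krt19 stood at -0.19, -0.11 and -1.15 at the mid dose. The FPKM of the list summed to 43.0 in lean and 314 in low-dose liver, mostly Spp1 and Krt23. The part of duct cells in other results was not tested.

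A list of NRF2 and antioxidant genes was higher in many members. Of 33, 15 were higher and 2 lower in low-dose liver, the same counts as in vehicle (of 31 tested), but 10 exceeded vehicle and 1 was below it. Nqo1, a quinone reductase, went from 4.66 to 24.3 FPKM (2.38, SE 0.197), with 0.79 in vehicle. Srxn1, which repairs peroxiredoxins, went from 20.9 to 167, 7.98-fold, and the carbonyl reductase Cbr3 from 0.526 to 26.4 (5.65). Slc7a11, the cystine importer for glutathione synthesis, went from 0.0820 to 1.92 FPKM (4.55, SE 0.926) and stood at 0.47 and 0.86 in mid- and high-dose liver. The glutathione transferases Gsta1 (6.86), Gstm3 (4.60) and Gsta2 (4.02) rose, with the limit that family members share sequence. Gsta3 was lower (-0.91). Hmox1, heme oxygenase, had no call (0.43). Gclc (132 and 126 FPKM), Gclm, Gsr, Prdx1 and Nfe2l2, which encodes NRF2, had none either. Whether NRF2 drove the higher genes was not tested.

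Of 20 tested genes of drug and xenobiotic metabolism, 11 were higher and 5 lower; in vehicle 7 and 6 of 21. Abcb1a, a drug efflux pump, rose by 3.46 with a wide error (SE 1.52, not called under the normal test), and Nr1i2, the xenobiotic receptor PXR, by 1.44. Sult1e1, estrogen sulfotransferase, was at 5.53, close to vehicle (5.16). Cyp2a4, a cytochrome P450 of female liver, went from 0.282 to 16.7 FPKM (5.89), and stood at 1.87, -0.24 and 1.40 in vehicle, mid- and high-dose liver. Its near copy Cyp2a5 was at 301 FPKM in lean and 786 in low-dose liver and was called higher. Reads may have been split between these copies, so the value of Cyp2a4 is uncertain. Cyp2e1, an abundant P450, fell by 2.12, and Nr1i3, the receptor CAR, by 1.10. Cyp2b10, the CAR target, was at 0.0938 and 0.199 FPKM and was not tested against lean.

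Stress genes of the endoplasmic reticulum showed 3 higher and 3 lower calls of 16 (1 and 4 in vehicle). The higher ones act in the amino acid and integrated stress response: Atf3 rose 11.8-fold from 1.61 FPKM (3.57, SE 0.262), Asns, asparagine synthetase, from 0.670 to 3.22 (2.26) and Trib3 from 9.26 to 23.0 (1.31), each above vehicle, by 1.98, 2.72 and 2.26. The lower ones were Pdia4 (-0.59) and Pdia6 (-0.49), which fold proteins, and the sensor Atf6 (-0.56). Ddit3, which encodes CHOP, had no call (0.56, SE 0.476).

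Genes for plasma proteins differed by kind. Of 13 genes for abundant proteins that hepatocytes secrete, 5 were lower and none was higher (6 and none in vehicle). Ttr, which carries thyroid hormone, went from 5311 to 1608 FPKM (-1.72, SE 0.344). Alb, albumin, was at 57975 and 34067 FPKM, a difference the test did not call (-0.77, SE 0.575). Of 16 acute phase genes, 6 were higher and 4 lower. Lcn2, lipocalin 2, went from 21.6 to 354 FPKM (4.04, SE 0.182) and exceeded vehicle by 0.64. Saa1 and Saa2, serum amyloids, rose by 1.11 and 1.46 but were below vehicle by -1.43 and -1.59; as near copies they are uncertain. Fgg, a fibrinogen chain, went from 2567 to 1285 FPKM and was called lower.

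Growth hormone controls many liver genes differently in males and females. In a list of 18 tested members that holds male-biased and female-biased genes and the hormone's signalling genes, 9 were lower and 3 higher in low-dose liver, and 11 and 2 in vehicle. Besides Slco1a1, the lower ones include Elovl3, a fatty acid elongase (-2.30), Cyp2d9 (-2.06), Cyp7b1 (-2.10) and Ghr, the growth hormone receptor (284 to 91.2 FPKM, -1.64). Cyp2b9 (-6.79), also among the lower, is known from female liver. The higher ones include Cyp2a4, which is female-biased and has the copy limit given above, and Socs2, a feedback inhibitor of the hormone (1.09). Igf1, its main secreted mediator, had no call (298 and 220 FPKM, -0.43, SE 0.323).

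Housekeeping lists and markers of other cell types were set beside these. None of 17 respiratory chain genes was called in low-dose or vehicle liver (median -0.17 and -0.10), and 0 and 1 passed an unadjusted p under 0.05 by Cuffdiff in the authors' deposited table of each. Among 17 ribosomal protein genes 7 were higher and none was lower (median 0.45; -0.02 in vehicle); their many processed copies make the values uncertain. Of 20 lysosome genes, 5 were higher and 2 lower, led by the macrophage protease Ctss (32.7 to 126 FPKM, 1.94) and with Npc1, the lysosomal cholesterol exporter, at -0.67. Endothelial markers gave 4 lower and no higher calls of 7, among them Stab2 (-1.23) and Kdr (-1.04). All 5 tested blood cell markers were lower, with Hba-a1 going from 92.6 to 37.1 FPKM (-1.32); the list's FPKM summed to 524 in lean and 231 in low-dose liver. Of 7 pancreas markers, 6 were at 0 in both groups. No skeletal muscle marker reached the test, and Cfd was the tested adipose marker, at 1.32 FPKM in lean and 0.253 in low-dose liver (-2.38), with vehicle above lean by 4.57. The part of blood, endothelial or other admixed cells in these results was not tested.

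Some genes differed from lean in the low-dose group with no call in vehicle. Besides Slc51b and Akr1b7, the higher ones named were Clic3, a chloride channel protein (0.731 to 39.4 FPKM, 5.75), Ttyh1 (4.82), Gm11832 (4.69), the epithelial protease genes Mmp7 (0.640 to 14.7 FPKM, 4.53) and Tmprss4 (4.52), and Fcnaos (4.87, SE 3.37, not called under the normal test). Each also exceeded vehicle, by 3.51 to 5.87. Clic3, Ttyh1 and Tmprss4 stood at 7.55, 5.56 and 6.16 at the mid dose, while Mmp7 stood at -0.67 there and 1.25 at the high dose. Clic3 and Ptgds are neighbours on chromosome 2, at 25456838 to 25458776 and 25466709 to 25470046 (GRCm38, GENCODE), 7932 bases apart. The lower ones include Mup-ps18 (-4.16), Mup9 (-3.59), Slc15a5 (-3.40), Tmie (-3.25), Gm38079 (-3.24), Ugt2b1, a glucuronosyltransferase (149 to 16.1 FPKM, -3.20, SE 0.169), and Mup5 (-3.18).

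Other genes had left lean under vehicle and had no call at the low dose. Of those higher in vehicle, Adgrv1, an adhesion receptor, was at 2.14 FPKM in lean and 1.80 in low-dose liver (-0.24), with vehicle at 3.53. Mogat1, an acyltransferase of fatty liver, stood at -1.11 (SE 0.764) and 2.53 in vehicle, Lgals1, galectin 1, at 0.31 and 1.56, and Gnai1 at 0.49 and 2.61. RP23-310J6.2 (0.79), Adam11 (-0.23), Cyp2a22 (0.42) and Col3a1 had the same course. Of those lower in vehicle, beside the cholesterol genes, Adgrf1 stood at -0.27 with vehicle at -3.37, Zfp871 at 0.16 with -2.53, F830016B08Rik at 0.06 with -2.21 and Nipal1 at -0.13 with -1.99. A missing call does not show equality with lean.

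A last set lay on opposite sides of lean in the 2 groups. Higher at low dose and lower in vehicle were, among others, Ptgds, the noncoding RNA Rian (0.628 to 5.27 FPKM, 3.07, against -1.04 in vehicle), Gm379 (2.17 against -0.70) and Cyp26a1, which degrades retinoic acid (2.63 to 11.2 FPKM, 2.10 against -0.95). Rian stood at 0.16 and 0.84 in mid- and high-dose liver. Lower at low dose and higher in vehicle were Mup17, Serpina4-ps1 (-4.59 against 2.14), Mup14 (-4.18 against 0.76), Clstn3 (7.74-fold lower, at 1.55 FPKM in low-dose liver, -2.95 against 1.46), whose locus also encodes a lipid droplet protein of fat cells, and Tlr5, the flagellin receptor (5.84 to 0.870 FPKM, -2.75 against 0.47).

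**Figure D5:**
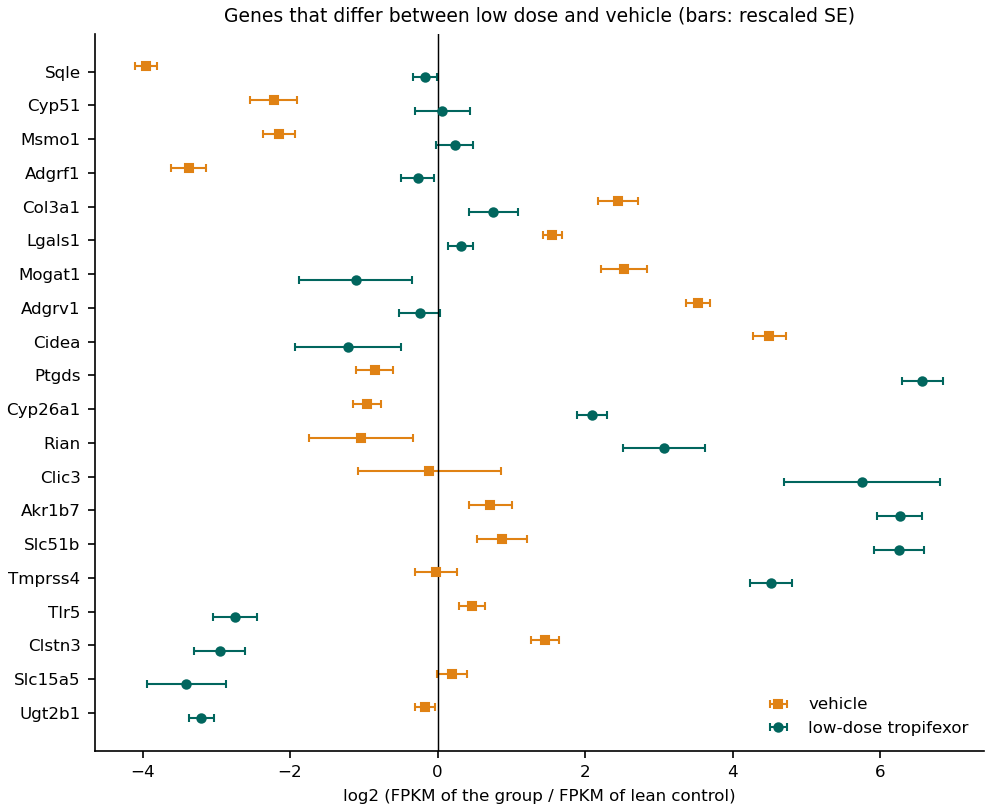
Log2 ratios to lean control (x axis) in vehicle (squares) and low-dose tropifexor (circles) for 20 genes that differed between these groups (y axis); bars are the rescaled SE. Sqle is near lean at the low dose (-0.17) and far below it in vehicle (-3.95), and Ptgds lies at 6.57 and -0.86.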

How the data were processed

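Total RNA of flash-frozen liver was extracted with Trizol and made into stranded mRNA libraries, per the labels' protocols. Per the submitters' processing notes, the tools were STAR 2.5.1b and bcl2fastq, with Cufflinks 2.2.1, Cuffdiff and Cuffnorm, on GRCm38; no roles are given. The FPKM values are the authors' deposited group values, 1 for each group of 4 animals, per the file headers. Beside them stand a test score and the p-value and q-value of the authors' Cuffdiff run, as deposited; no p was under 5e-05. The depth of each sample is unknown. Labels do not say more of the replicates than their number, so p-values measure the spread between these samples.

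A gene was called at status OK and q under 0.05, which equals the authors' flag. Log2 fold changes were computed from the ratio of the deposited FPKM, because the deposited column holds values that are not usable as log2. The SE is the fold change over the statistic, divided by 2.04, 2.03 or 2.05 (low dose against lean, vehicle against lean, low dose against vehicle), the median ratio of the normal z of the deposited p to the statistic over genes with p from 0.0002 to 0.9; without that division it is about that many times as wide. Tables were scaled separately: low-dose values differed by a constant of 0.123 (log2) between tables, so fold changes were taken within a table. The vehicle of the low-dose table was the tropifexor vehicle (median deviation 0.000980 log2, against 0.0930 for the other vehicle group).

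The members and the 35 gene lists were chosen with earlier results of these data known. A set of 30 genes was fixed by name, whatever their values. The other named genes had FPKM of at least 1 in lean or low-dose liver and were tested in the 3 tables. They were the 12 highest and 12 lowest called, and the called member of each list with the largest rise and fall. To these came 8 each way that became different or moved back, and 5 each way on opposite sides of lean. Other list members are examples chosen after their values were seen. Some genes that the rule picks are not reported here. Mid and high dose are given as values, with no test of the difference. Python 3.11.15, pandas 2.3.3, numpy 2.4.6 and scipy 1.17.1 were used.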

Additional observations from a re-analysis of the deposited data

How the results depend on the processing

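The count of genes called in low dose against lean stayed within 1.5 times of 3796 at q under 0.01 (2774), with an FPKM of at least 1 (3273), under the normal test (3747) and with fold changes centred on the median gene (3756). With an absolute log2 fold change of at least 1 it was 2177, and the count of lower genes was 714. No named gene or list count changed direction under these settings. Among genes named in the text, Abcb1a, Fasn, Fcnaos, Fn1, Soat1, Tgfb1 and Timp1 lost their call under the normal test and after centring. Marco lost its call after centring only. Scd1 gained one under both, and Nsdhl gained one with the FPKM filter and after centring. Hmox1 gained one with the filter, which leaves Cd3e, Cd8a and Ch25h untested. A pseudocount of 1 moved 54 of 121 fold changes by more than their SE, and the route through vehicle moved 0. No paired analysis was possible because the tables hold 1 value per group; for the same reason leaving out single animals was not run. Depth is unknown, so no detection limit can be given.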

Other observations

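A few genes outside the lists, chosen after their values were seen, stood out in the low-dose group. Next to the imprinted H19 and Rian lie other imprinted genes of fetal growth. Igf2, the growth factor beside H19, was at 0.341 FPKM in lean and 1.53 in low-dose liver (2.17), with -0.34, 0.44 and -0.35 in vehicle, mid- and high-dose liver. Meg3, the noncoding RNA beside Rian, went from 1.60 to 14.4 FPKM (3.17), with -0.79, -0.25 and 1.23 in the same groups. Afp, the fetal liver marker, was at 2.65 and 2.46 FPKM (-0.11).

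Tff3, a trefoil peptide of mucus, went from 14.4 to 46.7 FPKM (1.69, SE 0.268, q = 0.000426 in the authors' deposited table), where vehicle, mid and high dose lay below lean at -2.91, -1.72 and -2.48. Sprr1a, a cornified envelope protein, went from 0.911 to 56.8 FPKM (5.96, SE 0.388, with the same q), with 3.87, 1.26 and 1.27 in those groups. With 1 value per group, whether single animals carry these levels could not be examined, and the differences between doses were not tested. The steroid hydroxylase Cyp17a1 fell by 3.67, from 34.8 to 2.74 FPKM, with vehicle at -2.40.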
